A study of Mus musculus with 28 samples.

Results

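Pou4f3 and Atoh1 were expressed together in one mouse embryonic stem cell line (iP+A), and each alone in a further line (iPou4f3 and iAtoh1), and the response to both was set against the sum of the single responses. For each gene, the departure from the sum was the Dox effect in iP+A minus the Dox effects in iPou4f3 and in iAtoh1, each measured against untreated cells of its own line, on log2(normalized count + 1). The departure used 12 of the 28 libraries, and the other 16, from lines that also carried or only carried Gfi1, served for comparison. Of 16837 genes tested, 39 lay above the sum (0.232%) and 32 below it (0.19%) at an adjusted p under 0.05 (limma, Benjamini-Hochberg) and a departure of at least 1.5 in size. The genes above included Six3, Mmp24, Golga7b, Scrt1, Scg3 and Pou4f1, and those below included Wnt10a, Mstn, Rhcg, Gdf10 and Notum.

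Atoh1 is a bHLH transcription factor that binds E-box sequences and is needed for hair cells of the inner ear and for several kinds of neurons. Pou4f3 is a POU-domain homeodomain factor that hair cells need in order to mature and survive. On a log2 scale, 2 factors that act on a gene independently and in proportion give a joint effect equal to the sum of the separate effects, so a departure above 0 means that the joint response was larger than this sum, and one below 0 that it was smaller.

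All lines derived from A2loxCre cells and carried their factors with the fluorescent protein Venus under a Dox-inducible promoter. They were differentiated as embryoid bodies (EBs), aggregates that form cells of all germ layers, to day 6. Dox libraries came from Venus-positive sorted cells after 48 h of 2 µg/ml Dox from day 4, and No Dox libraries from whole unsorted EBs, so that Dox and sorting cannot be told apart within a line. Each group had 2 libraries, from different clones of the line according to the series record. A response shared by all Dox libraries enters the departure with a plus sign from iP+A and with a minus sign from each single line.

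The deposited normalized counts of the 12 libraries summed to between 38410000 and 40381000, and the depth estimated from the smallest steps of the values was 35238000 to 48033000 reads. Over all genes the median departure was 0.01, and its median standard error was 0.32. Markers of other cell types moved with Dox. The summed counts of 4 blood markers (Gata1, Hbb-bh1, Spi1, Ptprc) were 67387 to 325675 in the No Dox libraries, 170453 and 174911 in iPou4f3 Dox, 9849 and 13600 in iAtoh1 Dox, and 7805 and 18604 in iP+A Dox. The 4 pluripotency markers (Pou5f1, Nanog, Zfp42, Sox2) summed to 13116 in the second No Dox library of iP+A and to 2359 in the first. Without that second library, 64 genes lay above and 44 below the sum. The part of these cell types in the departures was not tested. In such bulk libraries, fewer cells of a type and less RNA per cell cannot be told apart.

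The factors themselves were at different levels in the lines compared. Atoh1 (Entrez 11921, chromosome 6, 64679140 to 64681227, NCBIM37) had 18996 and 21242 normalized counts in the iAtoh1 Dox libraries and 14888 and 12816 in iP+A Dox. Pou4f3 (Entrez 18998, chromosome 18, 42554251 to 42555747) had 4694 and 5381 in iPou4f3 Dox and 12878 and 10868 in iP+A Dox. The mean of iP+A was thus 0.688 times that of iAtoh1 for Atoh1, a log2 difference of -0.54 ± 0.33 (SE, adjusted p = 0.289), and 2.36 times that of iPou4f3 for Pou4f3, a difference of 1.24 ± 0.46 (adjusted p = 0.0634). In iAtoh1 Dox, which carries no Pou4f3 transgene, Pou4f3 was at 101 and 62.6 against 20.5 and 13.1 without Dox. Whether these doses bear on the departures was not tested, since each line had 1 level of each factor. Reads of the transgene and of the endogenous gene are counted together.

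Dox raised 792 genes and lowered 435 in iP+A at the same threshold (4.7% and 2.58% of those tested), 248 and 102 in iPou4f3 (1.47% and 0.606%), and 486 and 424 in iAtoh1 (2.89% and 2.52%). For most genes no departure was detectable with 2 libraries a group, which does not show that their responses summed. At an unadjusted p under 0.05, 1076 departures were above 0 (6.39%) and 943 below (5.6%), and 92 genes (0.546%) passed the adjusted p at any size. With the clone of each line as a block, 109 genes lay above and 63 below, among them 38 of the 39 and 29 of the 32. Leaving out 1 library gave 11 to 64 genes above and 7 to 44 below, with the fewest, 11 and 7, without iAtoh1 Dox replicate 2. Of the 12 such fits, Six3, Tmem132e, Rhcg, Stra6, Cd2 and Lfng kept the call in 2, Scrt1 and Pou4f1 in 4, and Brsk2, Rims3, Nbl1 and Gprc5b in 1. With all 14 untreated libraries as 1 control group, 31 of the 39 and 17 of the 32 kept the call. With the Dox effect of iGfi1 added back, 33 and 16 kept it, and with only the 6 groups compared 16 and 13. The iGfi1 effect holds what Gfi1 itself does as well as any response shared by all Dox libraries. These cannot be told apart, so a call lost with it added back does not show a shared response. The gene nearest to the adjusted p of 0.05 in each direction was Six3 (0.0496) above and Gprc5b (0.0496) below on the inside, and Coro2a (0.0501) above and Mtus1 (0.0525) below on the outside.

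**Figure D1:**
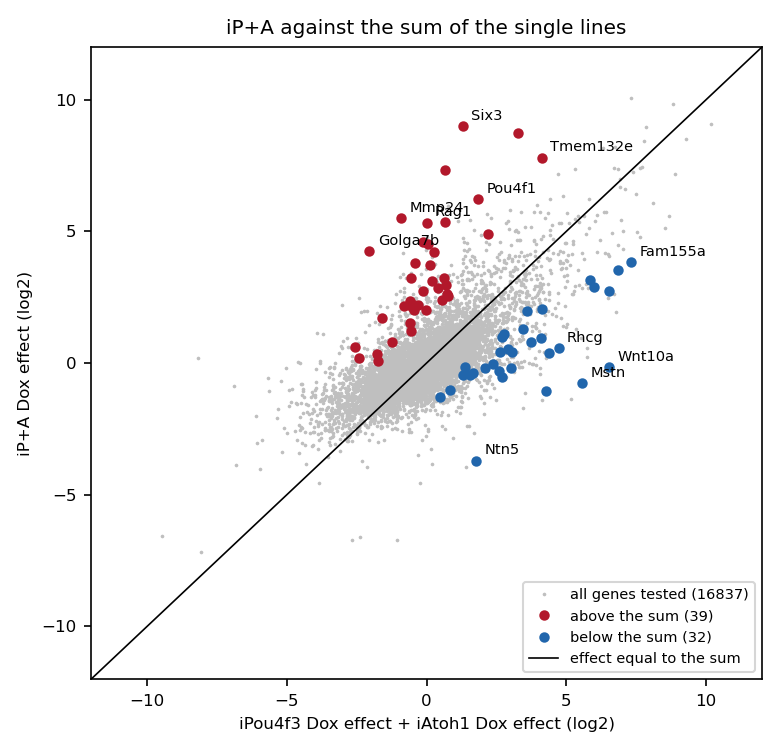
Dox effect in iP+A (vertical axis, log2) against the sum of the Dox effects in iPou4f3 and iAtoh1 (horizontal axis, log2) for the 16837 genes tested, with the line where both are equal. The 39 genes above the sum (red) mostly have a sum near 0 and a clear effect in iP+A, and the 32 below (blue) mostly have a positive sum and a smaller effect in iP+A.

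Of the 39 genes above the sum, 27 rose past the threshold in iP+A and in neither single line, 2 rose also in iPou4f3 (Pou4f1 and Tmem132e), 2 rose also in iAtoh1 (Kif19a and the unnamed gene with Entrez ID 624918), and 2 rose in iP+A but fell in iAtoh1 (Cracdl and Golga7b). A further 4 passed the threshold only by falling in iAtoh1, and 2 in none of the 3 lines. These genes had a median Dox effect over all 39 of 2.83 in iP+A, 0.10 in iPou4f3 and -0.24 in iAtoh1. In 34 of the 39, both iP+A Dox libraries were above the other 10 libraries, as they were for 11.7% of all genes tested. The iP+A effect exceeded the larger single effect in 38. These counts come from the contrast that chose the genes and describe its form. In form, most of the genes above the sum passed the threshold with both factors and with neither alone. Some single effects under 1.5 in size still had an adjusted p under 0.05. Examples are Rims3 in iAtoh1 (-1.43, adjusted p = 0.00876) and Fam241a in iPou4f3 (1.22, adjusted p = 0.00184).

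Six3, Scrt1 and Pou4f1 encode transcription factors. Six3 (Entrez 20473, chromosome 17, 86012948 to 86031153), a homeobox factor of forebrain and eye development, had 2202 and 1987 normalized counts in iP+A Dox, 4.47 and 2.02 in iP+A No Dox, 25.4 and 64.6 in iPou4f3 Dox against 2.48 and 36.2 without, and 11.0 and 9.34 in iAtoh1 Dox against 29.8 and 8.06 without. The iP+A Dox libraries stood apart from all others, while the No Dox libraries of iPou4f3 differed widely between themselves. Its departure was 7.72 ± 1.72 (SE, adjusted p = 0.0496), with a 95% interval of 4.12 to 11.32. It was 6.38 (adjusted p = 0.0541) with the iGfi1 effect added back, which ended the call. Six3os1 (Entrez 100043902, chromosome 17, 85999991 to 86017736), a noncoding gene that overlaps Six3, moved with it, at 787 and 737 in iP+A Dox and 3.21 to 36.2 in the iAtoh1 and iPou4f3 libraries, and departed by 6.65 ± 1.40 (SE, adjusted p = 0.0355), or by 5.01 (adjusted p = 0.0621) with the iGfi1 effect added back. The authors ran kallisto with default settings, which do not use strand, so reads from sequence that both transcripts share cannot be assigned to one of them by strand.

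Scrt1 (Entrez 170729, chromosome 15, 76346633 to 76352559), a zinc-finger repressor of the Snail superfamily found in neurons, had 204 and 154 normalized counts in iP+A Dox and 3.56 to 17.4 in the other 10 libraries. It departed by 4.75 ± 0.95 (SE, adjusted p = 0.0265), with no overlap between iP+A Dox and the rest. Pou4f1 (Entrez 18996, chromosome 14, 104862737 to 104867216), the paralog of Pou4f3 that specifies sensory neurons, was at 2346 and 1752 in iP+A Dox against 15.3 and 45.0 without, at 84.6 and 199 in iPou4f3 Dox against 37.3 and 35.7, and at 68.5 and 34.1 in iAtoh1 Dox against 68.4 and 31.8. It therefore rose in iPou4f3 (1.80 ± 0.50, adjusted p = 0.0464) and had an effect of 0.05 ± 0.50 with Atoh1 alone, and the joint rise of 6.21 ± 0.50 was beyond their sum by 4.36 ± 0.87 (SE, adjusted p = 0.0253). Pou4f1 and Pou4f3 share much of their POU domain, and how the authors' counting divided reads between them is uncertain. In iG+P Dox, Pou4f3 was at 17590 and 19883 and Pou4f1 at 535 and 266. The part of shared reads in the Pou4f1 counts was not tested.

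**Figure D2:**
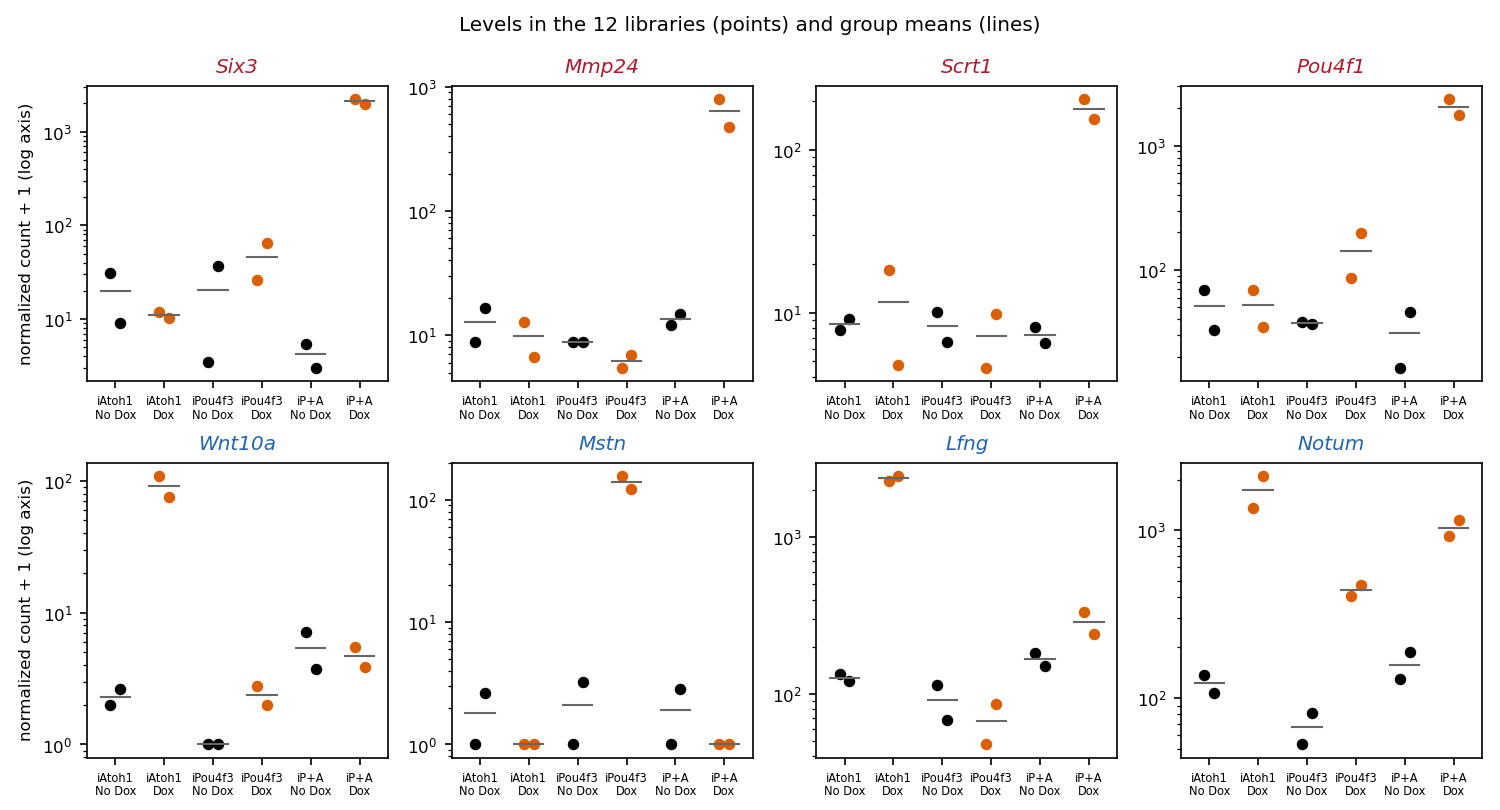
Normalized count + 1 (vertical log axis) in each of the 12 libraries, 2 points per group with the group mean as a line, No Dox in black and Dox in orange. Six3, Mmp24, Scrt1 and Pou4f1 are highest in both iP+A Dox libraries, while Wnt10a, Lfng and Notum are highest in iAtoh1 Dox and Mstn in iPou4f3 Dox.

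Scg3 (Entrez 20255, chromosome 9, 75491071 to 75531803), a granin of dense-core vesicles, had 496 and 319 in iP+A Dox and 5.58 to 16.5 in the other 10 libraries, a departure of 4.71 ± 0.74 (SE, adjusted p = 0.00533). Scg5, a chaperone of a prohormone convertase in the same vesicles, departed by 2.51 (adjusted p = 0.0385). Cacna1b (Entrez 12287, chromosome 2, 24459407 to 24618672), the pore subunit of the presynaptic N-type calcium channel, was at 549.7 and 423 in iP+A Dox against 100.1 and 213 without, and lower with Dox than without in both single lines, at 72.0 and 65.1 against 194 and 137 in iAtoh1 and 85.2 and 99.4 against 119.8 and 118 in iPou4f3. Neither single effect passed the threshold, and the departure was 3.32 ± 0.57 (SE, adjusted p = 0.0135). Rims3 of the presynaptic active zone (2.97), the nicotinic receptor subunit Chrnb2 (2.44), the Rab3 exchange factor Madd (2.06, and 1.12 with the 1 control group) and the secreted neural glycoprotein Olfm1 (1.75) also lay above the sum, each called in iP+A and in neither single line.

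Fcho1 (Entrez 74015, chromosome 8, 74232286 to 74249615), which starts clathrin-coated pits, had 2888 and 2749.9 normalized counts in iP+A Dox and 103 to 243 elsewhere among the 12, a departure of 3.97 ± 0.76 (SE, adjusted p = 0.0208). Tmem132e (Entrez 270893, chromosome 11, 82202402 to 82259834), a transmembrane protein whose loss is linked to deafness, rose with Pou4f3 alone, from 32.5 and 32.1 to 317 and 493, and in iP+A from 16.9 and 9.93 to 3340.3 and 2905, with iAtoh1 Dox at 42.8 and 32.9. The iP+A rise of 7.80 ± 0.45 was above the iPou4f3 rise of 3.57 ± 0.45, and the departure was 3.68 ± 0.77 (SE, adjusted p = 0.035). With the 1 control group Tmem132e departed by 2.68 (adjusted p = 0.0516). Also above the sum were the polarity kinase Brsk2 (3.63, adjusted p = 0.068 with clones as a block), the atypical cadherin Celsr3 (2.86) and the Dispatched relative Disp2 (4.23 ± 0.84 SE, adjusted p = 0.0245).

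Mmp24 (Entrez 17391, chromosome 2, 155601078 to 155644102), a membrane-bound matrix metalloproteinase of the nervous system, had 788 and 474 in iP+A Dox and 4.45 to 15.5 in the other libraries, a departure of 6.42 ± 0.82 (SE, adjusted p = 0.00111), the smallest adjusted p among the 39. Ndst3 (Entrez 83398, chromosome 3, 123229084 to 123393770), which modifies heparan sulfate, departed by 3.78 ± 0.69 (SE, adjusted p = 0.0173), and Tlcd3b (Entrez 68952), a gene linked to ceramide synthesis, by 4.48 ± 0.63 (SE, adjusted p = 0.00205). Golga7b (Entrez 71146, chromosome 19, 42322064 to 42344838), a relative of a Golgi-associated palmitoylation cofactor, was at 143 and 83.1 in iP+A Dox against 3.88 and 5.97 without, and fell in iAtoh1 from 21.1 and 17.7 to 5.81 and 3.07. Since iP+A moved against the fall in iAtoh1, its departure of 6.28 ± 0.87 (SE, adjusted p = 0.00205) was larger than its iP+A effect of 4.24 ± 0.50. Rag1, the lymphocyte recombinase, is listed at 0 in the other 10 libraries and at 33.5 and 46.2 in iP+A Dox, through which alone it passed the filter on low values. The other genes called in iP+A and in neither single line, with departures of 1.86 to 2.91, were Cfap410, Fam20c, Fam219a, Fam241a, Fbxl16, Map3k5, Nacad, Rundc3a and the cation channel Trpm2. Fam219a (1.35) and Fbxl16 (1.27) lost the call with the iGfi1 effect added back, and Fam241a (1.53, adjusted p = 0.0726) with the 1 control group.

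In 4 genes above the sum, the fall that passed the threshold with Atoh1 alone did not pass it with both factors. Cited4, a transcriptional coactivator, fell in iAtoh1 from 1249 and 1661 to 166 and 208 and was at 938 and 1223 in iP+A Dox against 916 and 958 without, a departure of 2.62 ± 0.53 (SE, adjusted p = 0.0281). Mapk8ip2, a scaffold of JNK signalling, fell from 512 and 428 to 154 and 152 in iAtoh1 and was at 665 and 492 against 438 and 466 in iP+A (2.11 ± 0.40 SE, adjusted p = 0.0205). Fam160a1 and the kinase Tnik had the same form, with departures of 1.78 and 2.03. With the 1 control group, Cited4 departed by 1.34 (adjusted p = 0.344), Tnik by 0.60 (0.716) and Fam160a1 by 0.98 (0.242), none of them called, and Mapk8ip2 by 2.41 (0.00134). With the iGfi1 effect added back Mapk8ip2 departed by 1.45 (adjusted p = 0.059) and lost the call. F13a1 and Prag1 departed by 3.14 and 1.79 with none of the 3 Dox effects past the threshold. F13a1 departed by 2.11 (adjusted p = 0.136) with the 1 control group, and Prag1 by 0.44 (adjusted p = 0.536) with the iGfi1 effect added back, neither called.

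**Figure D3:**
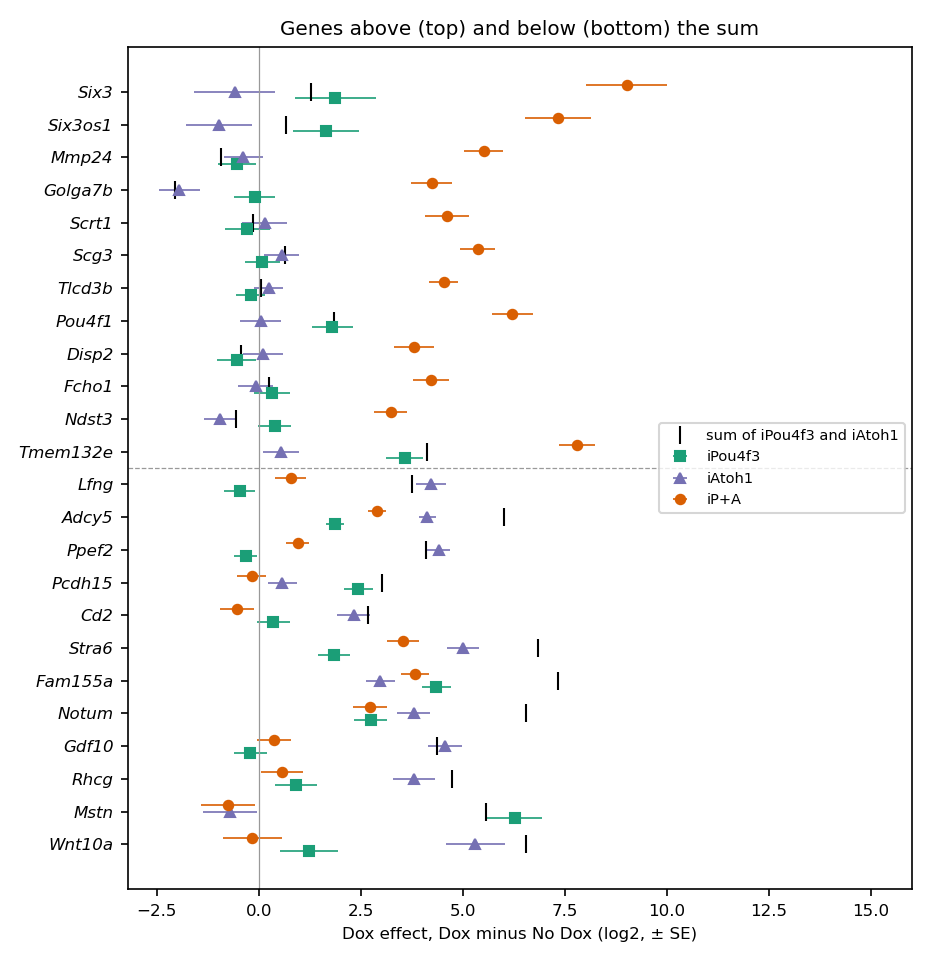
Dox effects (Dox minus No Dox, log2, ± SE) in iPou4f3 (green squares), iAtoh1 (purple triangles) and iP+A (orange circles) for the 12 largest departures above and the 12 below the sum, with the sum of the single effects as a black bar. For the upper genes iP+A lies to the right of the bar and of both single effects, and for the lower genes it lies to the left of the bar.

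Of the 32 genes below the sum, 17 rose past the threshold with Atoh1 alone and not in iPou4f3 or iP+A, 6 rose in all 3 lines, 2 rose in iPou4f3 only, and Syt13 rose in iAtoh1 and iP+A. Ntn5 fell past it in iP+A, and 5 passed the threshold in none of the 3. The median Dox effect over the 32 was 2.61 in iAtoh1, 0.42 in iPou4f3 and 0.39 in iP+A. Both iAtoh1 Dox libraries were above the other 10 in 25 of the 32, as they were for 9.25% of all genes tested. The iP+A effect was below both single effects in 15 and between them in 17. These counts, too, come from the contrast that chose the genes. In form, 17 of the 32 passed the threshold with Atoh1 alone and not with Atoh1 together with Pou4f3. Some of these 17 still rose in iP+A by less than 1.5. Examples are Qsox1 (0.98, adjusted p = 1.42e-05) and Galnt17 (1.28, adjusted p = 0.000685).

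Wnt10a (Entrez 22409, chromosome 1, 74838090 to 74850753), a Wnt ligand, had 108 and 73.8 normalized counts in iAtoh1 Dox, 4.53 and 2.88 in iP+A Dox and 0 to 6.11 in the other 8 libraries, and departed by -6.69 ± 1.24 (SE, adjusted p = 0.0179). Gdf10 (Entrez 14560, chromosome 14, 34736773 to 34749700), a ligand of the TGF-beta family, was at 358 and 528 in iAtoh1 Dox against 19.5 and 15.5 without, and at 37.1 and 34.6 in iP+A Dox against 30.5 and 24.8 (-4.0 ± 0.71 SE, adjusted p = 0.0161). With the iGfi1 effect added back, Gdf10 departed by -1.61 (adjusted p = 0.233). For both ligands the rise seen in iAtoh1 cells was not detectable in iP+A cells at this spread, with Dox effects there of -0.16 ± 0.72 and 0.37 ± 0.41.

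Mstn (Entrez 17700, chromosome 1, 53118507 to 53124923), or myostatin, a TGF-beta family ligand that limits muscle growth, rose with Pou4f3 alone and not with Atoh1. It had 156 and 121 in iPou4f3 Dox, and the other 10 libraries, iP+A Dox included, were at 0 to 2.23, a departure of -6.32 ± 1.15 (SE, adjusted p = 0.0172). It passed the filter on low values only through iPou4f3 Dox, the group where it was high. Lfng (Entrez 16848, chromosome 5, 141083295 to 141091497), a glycosyltransferase that modifies Notch receptors, had 2283 and 2449.8 in iAtoh1 Dox against 133 and 119.6 without, and 334 and 241 in iP+A Dox against 182 and 149. Its iAtoh1 effect of 4.22 ± 0.38 stood against 0.78 ± 0.38 in iP+A, and the departure was -2.97 ± 0.66 (SE, adjusted p = 0.0483). The block by clone ended this call (adjusted p = 0.0702), as did the iGfi1 effect added back (-1.30, adjusted p = 0.301). The BMP antagonist Nbl1 (-2.21) and the ligand Fgf10 (-1.53, adjusted p = 0.0601 with clones as a block, and -0.49 with the iGfi1 effect added back) were also below the sum.

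Notum, Stra6, Adcy5, Fam155a, Ephb1 and Hprt rose in all 3 lines, and their joint rise was not larger than the larger single rise. Notum (Entrez 77583, chromosome 11, 120515102 to 120522489), an enzyme that inactivates Wnt ligands, had 1351 and 2102 in iAtoh1 Dox, 406 and 468 in iPou4f3 Dox and 924 and 1143 in iP+A Dox, from 51.9 to 186 without Dox. Its effects of 3.80 ± 0.41, 2.74 ± 0.41 and 2.72 ± 0.41 gave a departure of -3.81 ± 0.71 (SE, adjusted p = 0.0179). Fam155a (Entrez 270028, chromosome 8, 9207238 to 9771018), a subunit of a sodium leak channel, rose by 4.35, 2.98 and 3.83 in iPou4f3, iAtoh1 and iP+A (-3.50 ± 0.61 SE, adjusted p = 0.0135).

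Stra6 (Entrez 20897, chromosome 9, 57911595 to 58001803), the cell-surface receptor for retinol uptake, rose from 19.0 and 13.8 to 529.9 and 566 in iAtoh1 and from 9.1 and 11.0 to 135 and 118 in iP+A (-3.30 ± 0.68 SE, adjusted p = 0.0296). Adenylate cyclase Adcy5 (Entrez 224129, chromosome 16, 35154963 to 35305823) departed by -3.10 ± 0.38 (SE, adjusted p = 0.000951), and the ephrin receptor Ephb1 (Entrez 270190, chromosome 9, 101824458 to 102257023) by -2.08 ± 0.40 (SE, adjusted p = 0.0215). A rise common to every line counts more than once in the sum, and 2 of these 6, Stra6 and Hprt, changed sign when the Dox effect of the iGfi1 line was added back (324 genes above, 1.92%, and 384 below, 2.28%), to 1.59 (adjusted p = 0.214) and 1.97 (adjusted p = 0.00502). Hprt, a purine salvage enzyme at whose locus the A2lox system places its transgenes, rose by 4.68 in iGfi1, and Stra6 by 4.90. Adcy5 departed by -1.44 (adjusted p = 0.0511) and Fam155a by -2.13 (adjusted p = 0.0665) in that setting and lost the call, while Notum and Ephb1 kept it. With the 1 control group Notum departed by -2.95 (adjusted p = 0.0527).

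Rhcg (Entrez 56315, chromosome 7, 86738249 to 86762543), an ammonia transporter, had 63.1 and 87.9 in iAtoh1 Dox and 2.23 to 26.0 in the other libraries (-4.15 ± 0.89 SE, adjusted p = 0.0385). Ppef2 (Entrez 19023, chromosome 5, 92656000 to 92682185), a calcium-binding phosphatase of photoreceptors, was at 631 and 546 in iAtoh1 Dox and 83.6 and 69.4 in iP+A Dox (-3.14 ± 0.49 SE, adjusted p = 0.0053). The lymphocyte adhesion gene Cd2 (Entrez 12481, chromosome 3, 101079822 to 101091862) departed by -3.21 ± 0.71 (SE, adjusted p = 0.0483). Rhcg departed by -1.97 (adjusted p = 0.178) with the 1 control group, and Cd2 by -1.45 (0.301) with it and by -1.24 (0.368) with the iGfi1 effect added back. Departures were -2.42 for the calcium pump Atp2a1 (0.45 with the iGfi1 effect added back), -2.37 for the ADP-ribosyltransferase Art1 (adjusted p = 0.0519 with clones as a block) and -5.36 for the bHLH factor Myod1. With the 1 control group Art1 (-1.22, adjusted p = 0.189) and Myod1 (-2.93, adjusted p = 0.072) lost the call. Art1 also lost it with the iGfi1 effect added back (-1.45, adjusted p = 0.113). Myod1 did not exceed 6.39 normalized counts in the 12 libraries and reached 43.6 and 76.9 in iG+A Dox, through which it passed the filter on low values. A list of 30 mesoderm and muscle genes holds none of Atp2a1, Art1 and Myod1. No gene of this list was called in limma (1 below with clones as a block). At an unadjusted p under 0.05, 0 were above and 2 below 0, beside 6.39% and 5.6% of all genes tested. Of the remaining genes below the sum, Unc93b1 of Toll-like receptor trafficking, Lsp1, Galnt17, Gprc5b, Syt13, Scara5, Mab21l3, Zbtb7c and the chloride channel Ano1 departed by -1.62 to -2.61. With the 1 control group, Unc93b1 (-1.30), Lsp1 (-1.02), Gprc5b (-1.17), Syt13 (-0.80), Mab21l3 (-1.33) and Zbtb7c (-0.97) lost the call, as did Scara5 (-0.36), Lsp1 (-1.49) and Ano1 (-0.79) with the iGfi1 effect added back.

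Pcdh15 (Entrez 11994), the protocadherin that forms the lower part of the hair cell tip link, was the 1 gene past the threshold in a list of 46 hair bundle and synapse genes. It had 429.8 and 409 in iPou4f3 Dox against 74.1 and 79.5 without, 76.7 and 152 in iAtoh1 Dox, and 56.3 and 81.8 in iP+A Dox against 63.5 and 92.5. Both iPou4f3 Dox libraries stood above the others, and iP+A Dox overlapped with untreated cells of its line (-3.19 ± 0.62 SE, adjusted p = 0.0215). Pcdh15 also rose by 2.17 in iGfi1, and with that effect added back the departure was -1.02 (adjusted p = 0.401). The part of Gfi1 itself in that rise was not tested. Ntn5, a netrin, was the 1 gene below the sum that fell past the threshold in iP+A, where it is listed at 0 with Dox and at 13.2 and 11.0 without. It lost the call with the 1 control group (-3.88, adjusted p = 0.0543) and with the iGfi1 effect added back (-2.46, adjusted p = 0.27).

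Promoters from RefSeq (GRCm38.p6, 250 bases before to 50 after the start) were matched for 32 of the 39 genes above the sum and 21 of the 32 below. Those without an entry included Scrt1, Disp2, Entrez 624918, Kif19a, Rundc3a, Tnik and Prag1 above and Wnt10a, Notum, Fam155a, Cd2, Myod1, Unc93b1, Scara5, Zbtb7c, Lsp1 and Syt13 below. The E-box CAGCTG, a palindrome, occurred in a promoter of 7 of the 32 (21.9%), of 10 of the 21 (47.6%) and of 2498 of 13126 genes tested (19%). Counted by promoter, since some genes have several, it was in 17.9% of those above, 50% of those below and 16.5% of all. The E-box CAGATG, searched on both strands, was in 12.5%, 19% and 14.7% of genes, and the homeodomain core TAATTA in 3.12%, 0% and 3.75%. These motifs were chosen with the departures known, the shares were not tested, and a match is not a binding site. The 10 genes below the sum with CAGCTG were Ano1, Art1, Atp2a1, Galnt17, Lfng, Ntn5, Pcdh15, Ppef2, Rhcg and Stra6.

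The promoters of Lfng and Ppef2, which rose with Atoh1 alone, are shown beside those of Pou4f1 and Six3, which were highest with both factors, each 5′ to 3′ on its own strand with CAGCTG in capitals. They lie at chr5:140607091-140607390 (plus strand), chr5:92256229-92256528 (minus), chr14:104467950-104468249 (minus) and chr17:85620584-85620883 (plus). CAGCTG starts 146 bases before the start of Lfng and again at its base 2, 209 bases before the start of Ppef2 and 118 before that of Pou4f1, and it does not occur in the Six3 window. Lfng and Ppef2 were picked from the promoters that hold CAGCTG. The promoters of Gdf10 and Adcy5, which also rose past the threshold in iAtoh1, do not hold it.
Lfng: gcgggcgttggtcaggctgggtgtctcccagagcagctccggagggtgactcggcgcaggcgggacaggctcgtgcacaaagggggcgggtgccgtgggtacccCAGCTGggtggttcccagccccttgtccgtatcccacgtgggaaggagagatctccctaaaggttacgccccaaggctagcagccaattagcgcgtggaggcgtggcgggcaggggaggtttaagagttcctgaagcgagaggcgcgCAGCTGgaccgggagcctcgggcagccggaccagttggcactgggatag
Ppef2: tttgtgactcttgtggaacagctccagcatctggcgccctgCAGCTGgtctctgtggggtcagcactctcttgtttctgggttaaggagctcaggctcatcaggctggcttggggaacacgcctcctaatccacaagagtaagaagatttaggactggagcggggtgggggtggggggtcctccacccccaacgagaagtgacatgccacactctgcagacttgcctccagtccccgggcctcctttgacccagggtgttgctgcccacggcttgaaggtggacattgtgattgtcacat
Pou4f1: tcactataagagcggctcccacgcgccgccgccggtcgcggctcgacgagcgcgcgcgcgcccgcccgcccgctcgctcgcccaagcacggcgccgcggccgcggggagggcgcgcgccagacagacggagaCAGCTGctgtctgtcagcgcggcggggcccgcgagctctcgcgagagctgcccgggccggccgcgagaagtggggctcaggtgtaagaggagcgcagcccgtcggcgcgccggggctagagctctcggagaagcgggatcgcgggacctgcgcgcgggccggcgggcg
Six3: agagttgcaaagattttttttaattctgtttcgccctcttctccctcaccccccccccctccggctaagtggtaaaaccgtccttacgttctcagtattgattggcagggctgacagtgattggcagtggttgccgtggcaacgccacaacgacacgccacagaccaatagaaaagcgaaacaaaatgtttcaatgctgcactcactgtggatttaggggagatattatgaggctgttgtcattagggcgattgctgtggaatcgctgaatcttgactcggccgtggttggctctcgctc

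In the other 16 libraries the same question can be put with Gfi1, a zinc-finger repressor, in every line, as iGPA plus iGfi1 minus iG+P minus iG+A, and there a response shared by all Dox libraries cancels. With Gfi1, 15 genes lay above and 15 below (0.0891% each way). Among the 39 genes above the sum without Gfi1, 30 had a positive departure with it, with a median of 0.97, and 50.4% of all genes tested were positive. Among the 32 below, 23 were negative, with a median of -0.63. Mmp24 and Mapk8ip2 passed the threshold both times. Mmp24 had 849 and 858 normalized counts in iGPA Dox and 6.39 to 25.5 in the Dox libraries of iG+A, iG+P and iGfi1, a departure of 7.59 ± 0.95 (SE, adjusted p = 0.00133), and Mapk8ip2 departed by 2.93 ± 0.46 (adjusted p = 0.00775).

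For the 39 genes above the sum, no difference between the departures without and with Gfi1 passed the threshold. Six3 reached 81.9 and 51.2 in iGPA Dox, above the 1.08 to 4.52 of the other Dox libraries with Gfi1 but far from its level in iP+A Dox, and its departure with Gfi1 was 4.48 ± 1.98 (adjusted p = 0.376). Among the lines with Gfi1, Tmem132e was highest in iG+A Dox, at 1377 and 1207, against 550.5 and 749 in iGPA Dox. Pou4f1 was at 221 and 323 in iG+A Dox, 535 and 266 in iG+P Dox and 547 and 449 in iGPA Dox. The departures of Tmem132e and Pou4f1 without minus with Gfi1 were 6.19 (adjusted p = 0.068) and 6.00 (adjusted p = 0.122).

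Of the genes below, Wnt10a was at 615 and 1018 in iG+A Dox and at 666 and 569 in iGPA Dox, so that it was high in the line with all 3 factors. Its departure with Gfi1 was -0.29 ± 1.43, and the difference between the departures was -6.40 ± 1.90 (adjusted p = 0.281), which did not pass the threshold. Lfng was likewise at 2107 and 2443 in iGPA Dox against 2653 and 4259 in iG+A Dox. Mstn, high in iPou4f3 Dox, was at 0 to 2.44 in all 16 libraries of the lines with Gfi1, iG+P Dox included. The difference of the departures itself passed the threshold for 5 genes, 2 higher without Gfi1 (Lrrc4 and Twf2, 0.0119%) and 3 lower (0.0178%). The 3 lower ones, Hprt, Mical2 and Qsox1, are genes below the sum. The departure that chose the genes below is a term of this difference, so the overlap is no separate result.

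**Figure D4:**
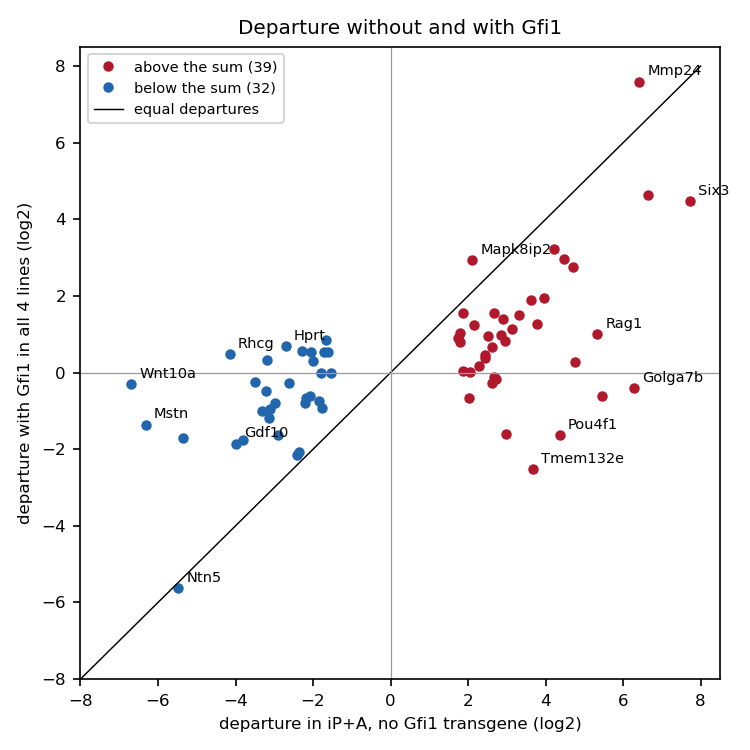
Departure in the lines with Gfi1 (vertical axis, log2) against the departure of iP+A (horizontal axis, log2) for the 39 genes above (red) and 32 below (blue) the sum, with the line of equal departures. The genes were chosen by their value on the horizontal axis, and Mmp24 lies far from 0 on both axes, at 6.42 and 7.59.

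Gene lists place these genes among the rest of their programmes. Of all genes tested, 4.7% rose past the threshold in iP+A, 1.47% in iPou4f3 and 2.89% in iAtoh1. In the same order, 2.58%, 0.606% and 2.52% fell. Of 46 general neuronal genes tested, 29 rose past the threshold in iP+A, 6 in iPou4f3 and 9 in iAtoh1. Their median departure was 1.28, beside 0.01 over all genes, and 37 of the 46 were above 0 (51% of all genes tested), with Scrt1 called. With clones as a block 4 were above, and with the 1 control group 14 were above and 1 below. Stmn3, a tubulin-binding phosphoprotein, departed by 5.02 ± 1.21 (SE, adjusted p = 0.0724) and the RNA-binding protein Elavl3 by 3.82 ± 0.93 (SE, adjusted p = 0.073). Tubb3, the neuronal tubulin, had 9649 and 7735 in iP+A Dox, 1142 and 870.2 in iAtoh1 Dox and 184 and 245 in iPou4f3 Dox, and its departure was 2.49 ± 0.62 (SE, adjusted p = 0.0798), called with the 1 control group (2.48, adjusted p = 0.0152). Dcx (0.64, adjusted p = 0.791) and Barhl2 (-0.15, adjusted p = 0.985) rose in all 3 lines.

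Sensory neuron genes followed in number, with 20 of 43 up in iP+A, 5 in iPou4f3 and 9 in iAtoh1, a median departure of 0.32, and Pou4f1 as the 1 called (3 above and 1 below with clones as a block). That median was 0.11 after quantile normalization and 0.61 with the iGfi1 effect added back. Voltage-gated channel genes had 18, 2 and 6 of 53 up in the same order and a median of 0.10, with Cacna1b called. For adhesion and guidance genes the counts were 13, 11 and 8 of 65 and the median was -0.18, with Ephb1 called below. Of these departures, 29 were above 0 (51% of all genes tested). At an unadjusted p under 0.05, 14 were below 0 and 5 above (5.6% and 6.39% of all genes tested). With clones as a block 3 were called below, and with the 1 control group 7 below and 1 above.

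Among hair bundle and synapse genes, 14 of 46 rose in iP+A, 10 in iPou4f3 and 0 in iAtoh1, with a median departure of 0.08. The shares of all genes tested were 4.7%, 1.47% and 2.89%. Otof, the calcium sensor of the hair cell synapse, rose from 11.3 and 7.81 to 231 and 414 in iPou4f3 and from 16.3 and 6.44 to 205 and 136 in iP+A, with iAtoh1 Dox at 8.23 and 3.78 (-0.89 ± 0.84 SE, adjusted p = 0.727). Lhx3, a LIM homeodomain factor of hair cells and motor neurons, was at 47.9 and 28.8 in iP+A Dox and 0 to 9.14 in the other libraries, and its departure of 3.25 ± 1.34 (SE, adjusted p = 0.331) did not pass the threshold. The departures of Myo7a (-0.14), Myo6 (-0.07), Espn (1.06) and Cdh23 (-0.56), which build or move the hair bundle, had adjusted p-values of 0.526 to 0.963. Across the 12 libraries, untreated ones included, Cdh23 was at 23669 to 46480 normalized counts and Myo7a at 1785 to 2331. Of 29 hair cell regulators, 14 rose in iP+A, 6 in iPou4f3 and 8 in iAtoh1, and the median was 0.09 (-0.01 after quantile normalization), with Pou4f1 called.

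Of 37 proneural and Notch genes, 18 rose with Atoh1 alone, 17 with both factors and 1 with Pou4f3 alone, and their median departure was -0.30, with Lfng called (2 others below with clones as a block, where Lfng was not). That median was 0.36 with the iGfi1 effect added back. Helt, a bHLH repressor, rose by 6.37 in iAtoh1 and had a Dox effect of 0.56 in iP+A, and its departure of -5.18 ± 1.52 (SE, adjusted p = 0.135) missed the threshold. Of 34 Hox genes, which pattern the body axis, 33 had a departure below 0 and 1 above (51% of all genes tested were above), with a median of -1.04 and medians of 0.78 in iAtoh1, 0.14 in iPou4f3 and -0.35 in iP+A. None passed the threshold in limma (2 did with clones as a block), and 8 were below 0 at an unadjusted p under 0.05 (5.6% of all genes tested). The median was -2.30 with the iGfi1 effect added back. In the lines with Gfi1 the median of the Hox departures was -0.06.

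Blood, pluripotency, endoderm and immediate early genes had median departures above 0. Blood genes fell past the threshold in iP+A (11 of 28), iPou4f3 (1) and iAtoh1 (14), and their median Dox effect of -1.09 in iP+A was above the median sum of -2.05, with 24 of 28 departures above 0 and a median of 1.06. That median was -0.22 with all 14 untreated libraries as 1 control group, so its direction depended on the controls. Pluripotency genes fell in iP+A (13 of 24) and iAtoh1 (3), with a median departure of 0.52, and endoderm genes had a median of 0.71. Both turned below 0, to -0.25 and -0.06, with the iGfi1 effect added back. Immediate early genes, which respond to handling of cells, had a median departure of 0.66, with 23 of 25 above 0, and a median Dox effect of -1.07 in iPou4f3, 0.15 in iAtoh1 and -0.21 in iP+A. No gene of these 4 lists passed the threshold in limma (2 blood genes with clones as a block). At an unadjusted p under 0.05, 8 of 28 blood and 5 of 22 endoderm genes were above 0. So were 2 of 25 immediate early and 0 of 24 pluripotency genes, beside 6.39% of all genes tested. Fibroblast, endothelial, mesoderm and cell cycle genes had medians of -0.23, 0.34, 0.04 and 0.01, and those of the fibroblast, endothelial and cell cycle genes changed sign, to 0.45, -0.07 and -0.13, with the 1 control group. With the iGfi1 effect added back the mesoderm median was -0.63 and the fibroblast median -1.34, and 3 fibroblast genes were called above with clones as a block.

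**Figure D5:**
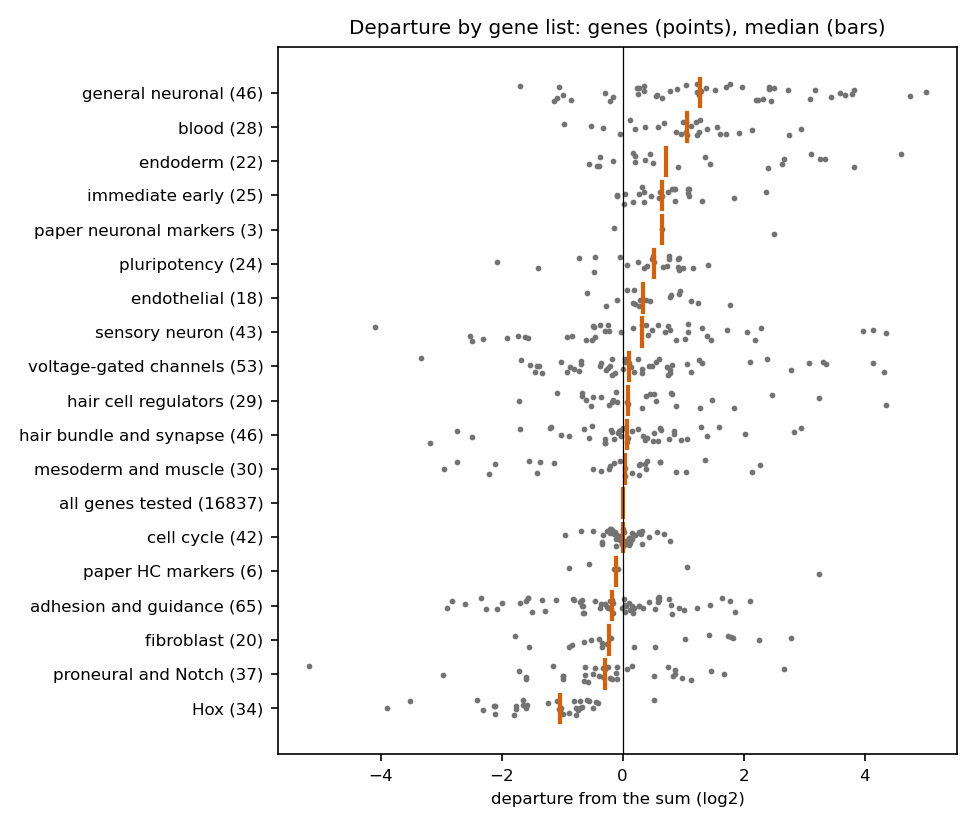
Departure from the sum (horizontal axis, log2) of each gene (points) of the gene lists, with the number of genes tested in brackets, the median of each list as a bar, and only the median shown for all genes tested. The general neuronal list has the highest median, 1.28, and the Hox list the lowest, -1.04.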

How the data were processed

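mRNA of 28 libraries was sequenced, with 2 libraries in each of 14 groups (7 lines, Dox and No Dox). Per the labels and the study's methods, the authors trimmed reads with cutadapt, pseudo-aligned them with kallisto to mm9 transcripts, summed them to genes and normalized them with DESeq2. The authors deposited 1 table of 19421 Entrez IDs, in log2 of the normalized count plus 1, and 19314 IDs were given a symbol from a RefSeq list (Neurod6, Lrrtm2 and Rhox5 were not analysed here). Because 71.5% to 79.4% of values up to 20 counts were within 0.05 of a whole multiple of a library's step, whole reads were not recovered and no count test was run. Coordinates are NCBIM37 (GENCODE M1), and were found for 16756 genes.

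The 16837 genes that reached 10 normalized counts in 2 or more libraries were fitted in 14 groups with limma 3.58.1 (R 4.3.3) and a variance trend. There were 14 residual degrees of freedom, and p-values were adjusted over all genes tested within each contrast (Benjamini-Hochberg). Genes were called at an adjusted p under 0.05 and an absolute log2 value of at least 1.5. The fit was tested on simulated data with known departures.

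Named genes were the 3 factors, the 12 largest called departures each way (same sign from either replicate number, a mean of at least 50 in a group, a symbol, and not at 0 in 1 and above 50 in another untreated library), the study's hair cell and neuron markers, and called members of the lists; further members were chosen after their values were seen. Members and lists were chosen with earlier results of these data known. The values of 1 gene below the sum are not reported here.

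The record states that replicates are different clones of a line, so replicate numbers were taken to pair Dox with No Dox within a line, although equal numbers are not stated to be the same clone. The deviations of paired libraries from their group means correlated across genes by 0.24 in iAtoh1, 0.23 in iPou4f3 and 0.25 in iP+A (0.10 to 0.16 in the other 4 lines). A fit with this block had 7 residual degrees of freedom. Other alternatives were pseudocounts of 0.5 and 5, a filter raised to 50 counts or dropped, rescaling by quantiles or by the 75th percentile of each library, only the 6 groups compared, 1 control group of 14 untreated libraries, no variance trend, a threshold of 1, the linear scale, the iGfi1 effect added back, and each library left out.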

Additional observations from a re-analysis of the deposited data

Results flagged for a closer look

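For 3 genes below the sum, the departure without Gfi1 differed from that with Gfi1 in the test of the difference itself (limma, Benjamini-Hochberg over 16837 genes). The departure that chose these genes is a term of the difference, so the test is not independent of their choice. Hprt departed by -2.71 without and 0.68 with Gfi1, a difference of -3.39 ± 0.50 (SE, adjusted p = 0.0209). Mical2, an actin-oxidising enzyme, had 1279 and 1136 normalized counts in iAtoh1 Dox, 259 and 226 in iP+A Dox, 490.1 and 474 in iG+A Dox and 957 and 1308 in iGPA Dox, a difference of -2.85 ± 0.45 (adjusted p = 0.021). Qsox1, which forms disulfide bonds in secreted proteins, had 8892 and 8708 in iAtoh1 Dox, 3413 and 3289.9 in iP+A Dox and 6874 and 6047 in iGPA Dox, a difference of -2.25 ± 0.33 (adjusted p = 0.0209). For Mical2 and Qsox1 the iAtoh1 level was above that of iP+A, while the iGPA level was above that of iG+A. The departure without Gfi1 still holds a response shared by all Dox libraries, with a minus sign, and that with Gfi1 does not, so the difference carries it too. Hprt rose by 4.68 in iGfi1, and with that effect added back its departure without Gfi1 was 1.97, above the one with Gfi1. The Dox effect in iGfi1 was 0.40 for Mical2 and 0.17 for Qsox1, whose departures were -1.88 and -1.55 with it added back. With the 1 control group Mical2 departed by -1.88 (adjusted p = 0.0707) and Qsox1 by -1.40, and both lost the call below the sum.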

How the results depend on the processing

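Each of the 71 genes kept its direction when 1 library was left out, under every scaling, filter, pseudocount and control tried in which it was tested, and on the linear scale, with the exceptions given next. With the iGfi1 effect added back, 324 genes lay above and 384 below the sum, with 33 of the 39 and 16 of the 32 among them, and Stra6 (1.59), Hprt (1.97) and Atp2a1 (0.45) changed sign, as did the transgene Gfi1 (7.28), which is induced in the line added. The number of genes called moved more than their direction. It was 59 above at a pseudocount of 5, 109 above and 63 below with the replicate block, 19 and 14 with only the 6 groups compared, and 148 and 74 with 1 control group, where 8 of the 39 and 15 of the 32 lost the call. With only the 6 groups compared, 16 of the 39 and 13 of the 32 kept the call. With the replicate block, 30 genes lay above and 38 below in the lines with Gfi1, and 11 differed upward between the departures. The block took away the call of Brsk2 above and of Lfng, Fgf10 and Art1 below the sum.

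Leaving out 1 library gave 11 to 64 genes above and 7 to 44 below, and 10 of the 39 and 7 of the 32 kept the call in all 12 of these fits (Mmp24, Golga7b, Scg3, Tlcd3b, Rag1, Trpm2, Chrnb2, Fam241a, Madd and Olfm1 above, and Ppef2, Adcy5, Hprt, Unc93b1, Mical2, Mab21l3 and Qsox1 below). The median number of these fits in which a gene kept its call was 6 of 12 in either direction, and the fewest 1. The lowest counts above were without iAtoh1 Dox replicate 2 (11) and iP+A Dox replicate 1 (11), and the lowest below without iAtoh1 Dox replicate 2 (7). Other counts more than 1.5 times from the full fit were 64 above without iP+A No Dox replicate 2, 59 above without iAtoh1 Dox replicate 1, and, above and below, 22 and 18 without iP+A No Dox replicate 1, 17 and 9 without iPou4f3 No Dox replicate 1, 23 and 17 without iPou4f3 Dox replicate 1, 22 and 19 without iPou4f3 Dox replicate 2, 25 and 15 without iP+A Dox replicate 2, and 10 below without iP+A Dox replicate 1. These fits leave a group with 1 library, which is assumed to vary like the others. In the same fits the Dox effects gave 643 to 752 genes up and 233 to 528 down in iP+A, 168 to 199 and 15 to 67 in iPou4f3, and 441 to 491 and 323 to 422 in iAtoh1. The departure with Gfi1 gave 7 to 29 genes up and 9 to 23 down, and the difference of the departures 0 to 7 and 1 to 12.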

Other observations

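Of the 30 genes below the sum with a position in NCBIM37, 9 lie on chromosome 7 (30%): Ano1, Art1, Atp2a1, Gprc5b, Lsp1, Mical2, Myod1, Ntn5 and Rhcg. This chromosome holds 8.01% of the 14635 placed genes tested and 1 of the 32 placed genes above the sum. The 9 were noticed after their values were seen, the share was not tested, and the median departure of all 1172 tested genes of the chromosome was -0.03, beside 0.01 over all placed genes. They are spread from Ntn5 at 52939784 to Ano1 at 151937879. Chromosome 2 holds 7 of the 32 placed genes above the sum (21.9%) and 7.89% of placed genes tested.

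The unnamed gene with Entrez ID 624918 reached 16462 and 13546 normalized counts in iP+A Dox, against 35.7 and 33.0 without, 277 and 159 in iAtoh1 Dox and 41.9 and 27.3 in iPou4f3 Dox, the highest level of any gene above the sum. It departed by 5.45 ± 1.05 (SE, adjusted p = 0.021) and had 27691 and 22875 in iGPA Dox. It lost the call with 1 control group (4.91, adjusted p = 0.0601) and kept it in 5 of the 12 fits that left out 1 library. Kif19a, a kinesin of motile cilia, rose in iAtoh1 to 298 and 263 and in iP+A to 2145 and 1725, a departure of 2.72 ± 0.48 (SE, adjusted p = 0.0147).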
